A study of Mus musculus with 2 samples.

Results

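The imprinted growth genes H19, Dlk1, Meg3, Peg3, Peg10, Mest, Plagl1, Cdkn1c, Grb10 and Ndn were described in the liver of newborn B6NCrl mice on postnatal day 0. These 10 genes were taken by symbol from the 43346 genes listed in each deposited table, and all 10 were matched to an identifier. There were 2 RNA-seq libraries of 1 group, one from the liver of pup 3 and one from the liver of pup 1, with no treatment, genotype contrast or sorted cell type. Each library was made from 13 pg of liver RNA longer than 200 nt, labelled as 1 cell-equivalent, and both biosamples carry the same donor entry, so spread between the animals and spread between preparations cannot be told apart. Levels are given in TPM (transcripts of a gene per 1000000 transcripts), a length-corrected share from which added spike-in RNAs were removed. A gene was called detected at 1 TPM, and mean ± SD is over n = 2 libraries throughout.

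Imprinted genes are transcribed mainly from the copy inherited from one parent, and they sit in clusters whose parental state is kept by DNA methylation at a control region. Many of them set the pace of growth before birth. In general, paternally expressed members such as Igf2, Dlk1, Peg3, Mest and Plagl1 favour growth or accompany it, whereas maternally expressed members such as Cdkn1c and Grb10 restrain it. Several are abundant in fetal tissues, the liver among them, and decline after birth. The mice are inbred and the tables give no allele counts, so which parental copy the RNA came from was not measured.

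The tables summed to 35973980 expected counts (estimated reads per gene) for pup 3 and 56959836 for pup 1, of which 34792898 and 54817565 came from the animals' own RNA. A count of 0 allows up to 3 counts, or 0.0862 CPM (counts per 1000000 counts) in pup 3 and 0.0547 CPM in pup 1. That limit covers counting error only, because reads amplified by PCR are not independent molecules. The liver label fitted its markers, since all 6 hepatocyte markers (led by Trf, Ahsg and Apoa1) and all 7 erythroid markers (led by Hba-a2, Hbb-bs and Hba-a1) were detected in both libraries. Of 4 muscle and 4 pancreas markers, none reached 1 TPM in either library. The 10 mesenchyme and stellate markers, led by Dcn, Col3a1 and Lum, summed to 226 TPM in pup 3, against 473 TPM in pup 1, and 3 were at 0 counts in pup 3, against 1 in pup 1. The 6 endothelial markers, led by Egfl7, Stab2 and Lyve1, summed to 170 TPM in pup 3, against 286 TPM in pup 1, but were mixed, with 3 past 2-fold higher in pup 3 (Pecam1, Cdh5 and Kdr) and 2 lower (Stab2 and Lyve1). The 4 macrophage markers, led by C1qb, Clec4f and Csf1r, summed to 510 and 505 TPM in pup 3 and pup 1, and the 4 bile duct markers, led by Spp1, Krt19 and Sox9, to 269 and 115 TPM. Of all genes that average 10 or more expected counts, 33.1% were past 2-fold higher in pup 3 and 34.5% past 2-fold lower. In whole liver, fewer cells of a type and less RNA per cell cannot be told apart. Neither can be told from spread between preparations.

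H19 stood far above the other imprinted growth genes, Mest and Peg3 followed, and Peg10 and Ndn were scarcely counted. Together the 10 genes held 1018 TPM in pup 3, against 1509 TPM in pup 1 (1263 ± 347), which was 0.102% and 0.151% of the animals' RNA. H19 alone made up 78.3% of that sum in pup 3 and 79.0% in pup 1. The other 9 genes summed to 221 TPM in pup 3, against 318 TPM in pup 1. The 4 maternally expressed genes (H19, Meg3, Cdkn1c and Grb10) held 864 and 1296 TPM in pup 3 and pup 1, and the 6 paternally expressed genes 154 and 213 TPM. By TPM both classes were thus lower in pup 3, the maternal one through H19 and Grb10 and the paternal one through Mest and Dlk1. Peg3 and Plagl1 were higher in pup 3. By CPM, which is not corrected for length, Peg3 had 462 in pup 3, against 314 in pup 1, and Mest had 143 and 268. The direction of the paternal class therefore depends on the unit.

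H19, Mest, Peg3 and Plagl1 reached 1 TPM in both libraries, Meg3 in pup 3 only, and Grb10, Dlk1 and Cdkn1c in pup 1 only. Ndn and Peg10 reached it in neither. Thus 4 of the 10 genes, or 40%, were detected in both, where 32.8% of all genes with a count were. The 4 are 50% of the 8 that reached 1 TPM anywhere, and over all genes that share was 46.3%. The members therefore lay close to the background of these libraries. Loss from a library depended on level over all genes. Of genes at 1 to 10 TPM in pup 3, 49.9% were under 1 TPM in pup 1, and in the other direction, 54.5% of those at 1 to 10 TPM in pup 1 were under 1 TPM in pup 3. For genes at 10 to 50 TPM the shares were 45.9% and 49.3%, at 50 to 200 TPM 23.3% and 19.7%, and at 200 to 2000 TPM, where H19 lies, 1.79% and 0.581%. Grb10 in pup 3 lay just under the threshold at 0.996 TPM, and Cdkn1c in pup 1 was the nearest above it at 3.35 TPM. The deposited credibility bounds of Grb10 in pup 3 ran from 1.07 to 2.11 TPM, on the scale with spike-ins, and so lay above 1 TPM.

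In order of mean level, the genes ran H19, Mest, Peg3, Grb10, Meg3, Plagl1, Dlk1, Cdkn1c, Ndn and Peg10. The values of neighbours in this order overlapped between the libraries except at 2 steps. The lowest H19 value, 797 TPM, lay above the highest of Mest, 145 TPM, and the lowest Plagl1 value, 9.19 TPM, above the highest of Dlk1, 7.68 TPM. The position of Grb10 and Meg3 in the order rests on 1 library each, pup 1 and pup 3.

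**Figure D1:**
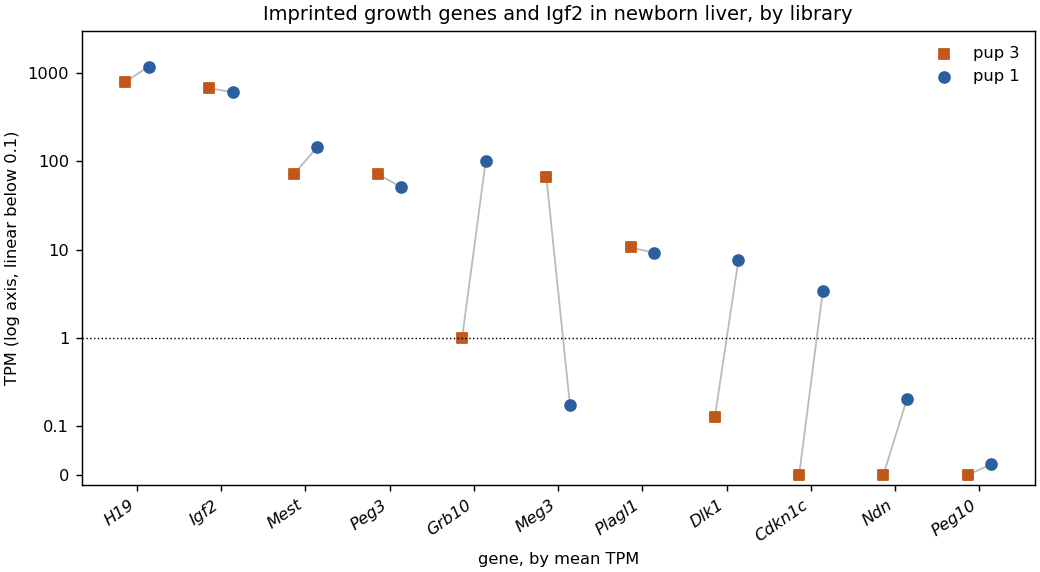
TPM of the 10 imprinted growth genes and of Igf2 in the pup 3 library (squares) and the pup 1 library (circles), on a log axis that is linear below 0.1; the dotted line marks 1 TPM. H19 and Igf2 lie between 611 and 1191 TPM in both libraries, whereas the lines joining the libraries are long for Grb10 and Meg3.

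H19 is a maternally expressed long noncoding RNA whose gene lies next to Igf2 (ENSMUSG00000000031, chromosome 7, 142575529 to 142578143, minus strand, GRCm38). It had 797 TPM in pup 3, against 1191 TPM in pup 1 (994 ± 279), from 32512 and 78826 expected counts. It was lower in pup 3, with a log2 ratio of -0.58 on the log2(TPM + 1) scale used for all ratios, which lies within 2-fold. H19 ranked 142 among all genes in pup 3 and 93 in pup 1. Igf2, the paternally expressed growth factor whose gene shares enhancers with H19, had 676 TPM in pup 3, against 611 TPM in pup 1 and ranked 180 in both. H19 thus exceeded Igf2 in both libraries, by a ratio of 1.18 in pup 3 and 1.95 in pup 1.

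H19 RNA is also the precursor of a microRNA, miR-675, which is cut from a hairpin of 84 bases in its first exon. The hairpin lies at 142577064 to 142577147 on chromosome 7, in the sense of H19. Both mature strands, from RefSeq on GRCm38.p6, are shown because the transcript estimates separate H19 RNAs that hold the hairpin from those that lack it. Capitals mark the seed, bases 2 to 8, which pairs with target RNAs.
mmu-miR-675-5p: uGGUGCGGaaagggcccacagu
mmu-miR-675-3p: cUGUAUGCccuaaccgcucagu

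The deposited tables list 5 H19 transcripts, of which 3 carried nearly all reads. The full-length H19-202 (2286 nt, 5 exons) had 287 TPM in pup 3, against 451 TPM in pup 1. H19-203, a short RNA of 817 nt from the 3′ part of the gene, had 374 TPM in pup 3, against 383 TPM in pup 1. H19-205 had 136 TPM in pup 3, against 357 TPM in pup 1. H19-203 was therefore nearly level between the libraries, and the lower H19 total in pup 3 lay in the other 2 transcripts. The miR-675 hairpin sequence was found in H19-202 and H19-205 and not in H19-203. RNAs that hold it made up 53.1% of H19 TPM in pup 3 and 67.9% in pup 1, or 423 and 808 TPM. The leading transcript by TPM was H19-203 in pup 3 and H19-202 in pup 1, whereas by expected counts it was H19-202 in both. The division rests on reads estimated among overlapping exons, and H19-205 is listed at 1853 nt in the tables but 1521 nt in GENCODE M21, from which the sequences came. Mir675 itself had 0 counts in both libraries, which were made from RNA longer than 200 nt.

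Mest, Peg3 and Plagl1 were the paternally expressed genes found in both livers. Mest (ENSMUSG00000051855, chromosome 6, 30723547 to 30748465, plus strand) encodes a protein of the alpha/beta-hydrolase fold. It had 71.2 TPM in pup 3, against 145 TPM in pup 1 (108 ± 52.1), a log2 ratio of -1.01 that lies just past 2-fold. By CPM the same gene was 1.88-fold lower in pup 3, so the call sits at the threshold. It lay in the highest 3.80% of genes in pup 3 and the highest 1.80% in pup 1.

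Nearly all Mest RNA was assigned to a single start. Mest-211 (2554 nt in the tables) held 99.1% of Mest TPM in pup 3 and 98.6% in pup 1. Transcripts that begin within 100 bases of the RefSeq start at 30738050 summed to 70.7 and 143 TPM, whereas those within 100 bases of the upstream RefSeq start at 30733506 had 0 TPM in both libraries. Mest-210, from the upstream start, is listed at 658 nt in the tables but 2383 nt in GENCODE M21. Reads from outside its listed part could not be assigned to it, which limits this comparison of starts. The 250 bases before the start at 30738050 are shown, because nearly all Mest TPM was assigned to transcripts that begin near it. Capitals mark GGGCGG, the GC box bound by Sp1-type factors, searched on both strands. It occurs once in this window and in 32.7% of the 32851 RefSeq windows of the same length. The window holds 14 CG dinucleotides, against a median of 6 over all windows.
Mest, chr6:30737800-30738049, plus strand, GRCm38.p6: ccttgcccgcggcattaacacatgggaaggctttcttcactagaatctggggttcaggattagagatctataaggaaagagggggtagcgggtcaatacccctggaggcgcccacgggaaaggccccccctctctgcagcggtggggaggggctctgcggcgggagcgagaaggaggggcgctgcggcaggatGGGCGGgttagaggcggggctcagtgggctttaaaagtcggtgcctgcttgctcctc

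Mest also hosts miR-335, whose hairpin (30741299 to 30741396) lies within the gene but in none of its spliced transcript sequences. Mir335 had 0 counts in both libraries. Its mature strands are given to complete the microRNAs hosted by the members found in both livers, with the seed in capitals; the 4 seeds of these microRNAs all differ.
mmu-miR-335-5p: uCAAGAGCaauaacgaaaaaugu
mmu-miR-335-3p: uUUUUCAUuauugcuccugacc

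Peg3 encodes a large zinc finger protein (ENSMUSG00000002265, chromosome 7, 6703892 to 6730431, minus strand). It had 71.7 TPM in pup 3, against 51.0 TPM in pup 1 (61.3 ± 14.6), from 16076 and 17188 expected counts. It was somewhat higher in pup 3 (log2 ratio 0.48), within 2-fold. Peg3-201, which is 8694 nt long, held 84.2% of it in pup 3 and 87.0% in pup 1. Peg3-204, an RNA with a retained intron, held 6.06% and 12.5%, and Peg3-203 held 9.71% in pup 3 and had 0 counts in pup 1. All 3 begin within 100 bases of 1 RefSeq start.

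Plagl1 encodes a zinc finger transcription factor, also called Zac1, that binds GC-rich DNA (ENSMUSG00000019817, chromosome 10, 13060504 to 13131694, plus strand). It had 10.6 TPM in pup 3, against 9.19 TPM in pup 1 (9.89 ± 0.997), the smallest spread relative to level of the 10 genes. Its log2 ratio was 0.19, and -0.05 with TMM or DESeq2 scaling, so no direction is given. All Plagl1 reads were assigned to Plagl1-202 in both libraries, 1 of 25 listed transcripts. Among the 250-base windows before the RefSeq starts of these genes, that of Peg3 alone holds GGGGCCCC, a GC-rich palindrome of the kind that Plagl1 is known to bind. It occurs in 0.889% of all windows, and the match lies in an exon of Usp29 annotated on the opposite strand. GCCATNTT, a core of YY1 sites, occurs in none of the members' windows, against 3.91% of all.

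The growth inhibitors Grb10 and Cdkn1c were found in pup 1 and were near or at 0 in pup 3. Grb10, an adaptor that dampens signalling of the insulin and IGF1 receptors (ENSMUSG00000020176, chromosome 11, 11930508 to 12038683, minus strand), had 0.996 TPM in pup 3, against 101 TPM in pup 1 (51.0 ± 70.8). These values came from 141 and 20936 expected counts, a log2 ratio of -5.68 and a CPM 94.2-fold lower in pup 3. As given above, 19.7% of all genes at the pup 1 level of Grb10 were likewise under 1 TPM in pup 3. Of the 10 mesenchyme markers given above, 6 were past 2-fold lower in pup 3 and 1, Reln, past 2-fold higher (52.3 TPM in pup 3, against 0 in pup 1), where 34.5% and 33.1% of all tested genes were. Their part in the Grb10 difference was not tested. With 2 libraries the SD of Grb10 exceeds its mean, and its level cannot be stated more closely than the range.

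Grb10 is known for tissue-dependent promoters, with maternal transcripts from an upstream start in most tissues and paternal ones from downstream starts in brain. Grb10-201, from the upstream start, held 100% of Grb10 TPM in pup 3 and 99.7% in pup 1, or 0.996 and 101 TPM. Grb10-203, which begins at the other RefSeq start, 12027971, had 0 TPM in pup 3, against 0.300 TPM in pup 1, from 57.4 expected counts. Grb10-207 and Grb10-209 begin further downstream, at 12026732 and 12026324, and had 0 counts in both libraries. Which of these downstream starts serves the brain was not examined, so 12027971 does not stand for it. Both windows are shown because nearly all Grb10 TPM was assigned to the upstream start. The division is estimated among overlapping transcripts. The deposited bounds of Grb10-203 in pup 1 ran from 0.00903 to 1.21 TPM, on the scale with spike-ins. The upstream window holds 40 CG dinucleotides and 5 GGGCGG matches (capitals, either strand), some of which touch or overlap, while the downstream window holds 8 and 0.
Grb10 upstream start, chr11:12037421-12037670, minus strand, GRCm38.p6: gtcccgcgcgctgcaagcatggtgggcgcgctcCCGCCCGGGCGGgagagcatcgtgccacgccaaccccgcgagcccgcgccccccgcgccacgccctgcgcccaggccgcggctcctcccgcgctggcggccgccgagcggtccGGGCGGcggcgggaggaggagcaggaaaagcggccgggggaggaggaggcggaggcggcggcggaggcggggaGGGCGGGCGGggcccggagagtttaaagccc
Grb10 downstream start, chr11:12027972-12028221, minus strand, GRCm38.p6: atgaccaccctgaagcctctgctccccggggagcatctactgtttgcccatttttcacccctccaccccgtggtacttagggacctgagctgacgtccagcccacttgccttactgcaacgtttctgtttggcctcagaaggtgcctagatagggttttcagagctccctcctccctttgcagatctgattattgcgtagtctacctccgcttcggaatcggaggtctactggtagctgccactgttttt

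Cdkn1c encodes p57Kip2, an inhibitor of cyclin-dependent kinases (ENSMUSG00000037664, chromosome 7, 143458339 to 143461050, minus strand). It had 0 counts in pup 3 and 251 counts, 3.35 TPM, in pup 1, all in Cdkn1c-201. Set against the floor of 3 counts in the pup 3 library, its CPM in pup 1 was 53.1-fold higher. This takes the 251 counts of pup 1 as they stand, without their counting error. Genes at its pup 1 level were under 1 TPM in pup 3 in 54.5% of cases. An antisense gene annotated over it, Gm44732, was not used here, and no source used here says whether reads were counted by strand.

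Dlk1 and Meg3, neighbours on chromosome 12 expressed from opposite parental copies, differed between the libraries in opposite directions. Dlk1 encodes a membrane protein with EGF-like repeats that marks hepatoblasts of the fetal liver (ENSMUSG00000040856, 109452823 to 109463336, plus strand). It had 6 counts, 0.127 TPM, in pup 3 and 515 counts, 7.68 TPM, in pup 1, a log2 ratio of -2.94. Dlk1-205 (1703 nt) held 100% of Dlk1 TPM in pup 3 and 99.9% in pup 1. Dlk1-205 begins at 109453455, and the transcripts that begin at the RefSeq start, 109452823, had 0 TPM in both libraries. Meg3, a maternally expressed long noncoding RNA (ENSMUSG00000021268, 109541001 to 109571726, plus strand), had 65.9 TPM in pup 3, against 0.171 TPM in pup 1, from 1805 and 22 counts, a log2 ratio of 5.84. Rian, a noncoding RNA downstream of Meg3 that is also maternally expressed, had 19.95 TPM in pup 3, against 0.835 TPM in pup 1. Thus Meg3 and Rian were high in pup 3, and Dlk1 was higher in pup 1. The other 4 genes listed for this domain, Mirg, Rtl1, Dio3 and Begain, had 0 counts in both libraries. Genes at the pup 3 level of Meg3 were under 1 TPM in pup 1 in 23.3% of cases, and those at the pup 3 level of Rian in 45.9%. At the pup 1 level of Dlk1, 54.5% of all genes were under 1 TPM in pup 3.

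The size of the Meg3 difference depends on its transcripts. In pup 3 its TPM was divided among Meg3-203 (457 nt, 38.1%), Meg3-207 (1896 nt, 35.3%) and Meg3-208 (706 nt, 24.8%). In pup 1 the 22 counts were divided into 9 for Meg3-205 (1498 nt) and 13 for the much longer Meg3-209 (14548 nt), which held 87.5% and 12.5% of its TPM. The gene's effective length was therefore 956 nt in pup 3 and 3000 nt in pup 1, so that Meg3 was 385-fold higher in pup 3 by TPM and 129-fold by CPM. The deposited bounds of Meg3 ran from 57.5 to 66.0 TPM in pup 3 and from 0.236 to 0.751 TPM in pup 1. The deposited pup 1 value, 0.16 TPM, lay below its own bounds, so the fold by TPM is uncertain. Transcripts that begin within 100 bases of its first RefSeq start held 36.5% of Meg3 TPM in pup 3 and 87.5% in pup 1. The window before that start is shown because the spliced Meg3-207, which carried 1199 of the 1805 counts in pup 3, begins there. Capitals mark TATAAA on either strand, as 2 overlapping matches close to the start; the motif occurs in 12.4% of all windows.
Meg3, chr12:109540746-109540995, plus strand, GRCm38.p6: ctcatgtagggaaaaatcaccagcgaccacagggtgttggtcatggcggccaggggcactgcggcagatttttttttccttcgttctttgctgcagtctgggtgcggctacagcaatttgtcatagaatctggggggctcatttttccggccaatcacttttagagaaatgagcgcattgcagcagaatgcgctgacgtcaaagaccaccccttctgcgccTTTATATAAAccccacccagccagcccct

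**Figure D2:**
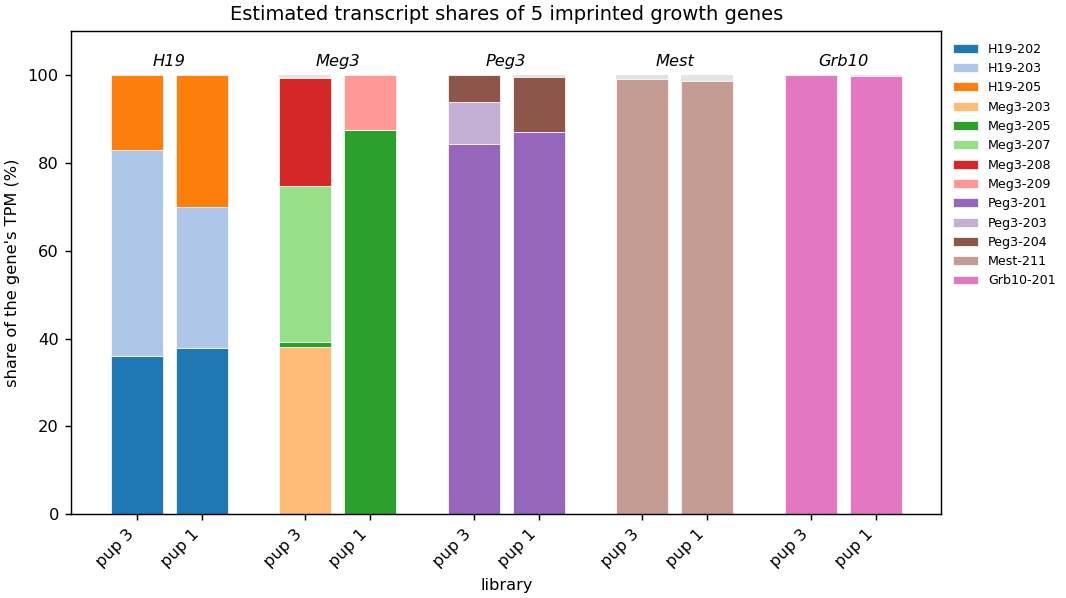
Estimated transcript shares, in percent of each gene's TPM, for H19, Meg3, Peg3, Mest and Grb10, with pup 3 left of pup 1 in each pair; transcripts of at least 5% in a library are coloured and the remainder is grey. Mest and Grb10 show 1 transcript in both libraries, H19 shows 3 in both, and the transcripts of Meg3 differ between the libraries.

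Ndn and Peg10 were near the limit of counting. Ndn encodes necdin, a protein of the MAGE family (ENSMUSG00000033585, chromosome 7, 62346569 to 62350262, plus strand), and had 0 counts in pup 3 and 13 counts, 0.203 TPM, in pup 1. Set against the floor of 3 counts in pup 3, its CPM in pup 1 was 2.75-fold higher. This takes the 13 counts of pup 1 as they stand, without their counting error. Peg10, a gene derived from a retrotransposon and needed for the placenta (ENSMUSG00000092035, chromosome 6, 4747306 to 4760517, plus strand), had 0 counts in pup 3 and 1 count in pup 1. Beyond these counts their expression was not detectable in these libraries. Whether sequencing depth or the amount of RNA set this limit was not tested.

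The ratio between the libraries was set against that of all genes. Of the 10 members, 8 averaged 10 or more expected counts, and Ndn and Peg10 did not. Among the 8, Meg3 was past 2-fold higher in pup 3, whereas Mest, Cdkn1c, Dlk1 and Grb10 were past 2-fold lower, and H19, Peg3 and Plagl1 lay within 2-fold. Among the 8120 genes tested, 33.1% were past 2-fold higher in pup 3, 34.5% past 2-fold lower and 67.6% past 2-fold either way, against 62.5% (5 of 8) of the members. The members' share is near the background. Their median log2 ratio was -0.80, against -0.04 over all tested genes. Mest was the member just past the threshold (-1.01) and H19 the next one inside it (-0.58). The deposited credibility bounds, which cover the estimation from reads within a library and whose level no label or header states, overlapped between the libraries for Peg10 alone. For H19 they ran from 729.7 to 751 TPM in pup 3 and from 1090 to 1111 TPM in pup 1, on the deposited scale with spike-ins, so they were much narrower than the spread between the libraries.

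**Figure D3:**
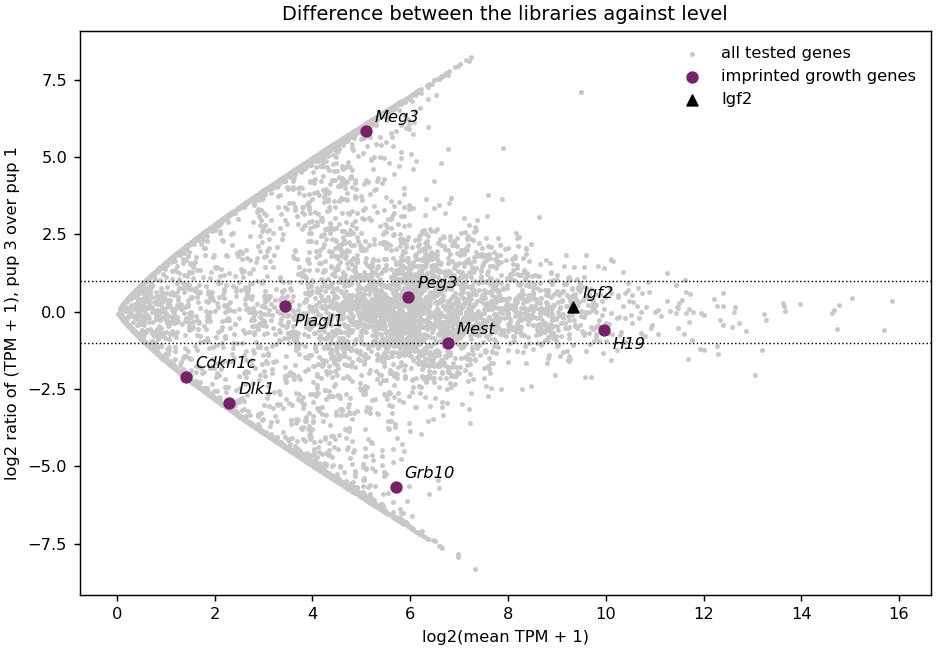
Log2 ratio of (TPM + 1), pup 3 over pup 1, against log2(mean TPM + 1), for the 8120 genes that average 10 or more expected counts (grey), 8 imprinted growth genes (purple) and Igf2 (triangle); dotted lines mark 2-fold. H19, Peg3, Plagl1 and Igf2 lie between the lines, and Meg3, Dlk1 and Cdkn1c lie at or near the edges of the cloud, where 1 library has few or no counts.

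Other imprinted genes and genes of the same domains were also found unevenly. Of 80 listed, 75 were matched to the tables and 40 had a count in a library. Of these 40, 12 (30%) were detected in both libraries, 7 in pup 3 only and 10 in pup 1 only, against 32.8% in both among all genes with a count. Of the 31 that averaged 10 or more counts, 11 were past 2-fold higher in pup 3 and 11 lower, or 71.0% together, against 67.6% of all genes. The median log2 ratio over these 31 was -0.03.

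In the domain of H19, Igf2 and Cdkn1c on chromosome 7, Cd81, a tetraspanin gene, had 158 TPM in pup 3, against 501 TPM in pup 1. Apart from H19, Igf2 and Cd81, the genes there with at least 10 TPM were each detected in 1 library. Tssc4 had 0 TPM in pup 3, against 42.4 TPM in pup 1, Nap1l4 had 0.0212 and 35.1 TPM, and Phlda2, which restrains placental growth, had 0 and 13.5 TPM. Slc22a18, a transporter gene, had 51.3 TPM in pup 3 and 0 counts in pup 1. Cdkn1c, Tssc4 and Phlda2 thus all had 0 counts in pup 3, while Slc22a18 went the other way. Of all genes at the pup 1 level of Cdkn1c, 54.5% were under 1 TPM in pup 3. At the pup 1 level of Tssc4 and Phlda2 that share was 49.3%. At the pup 3 level of Slc22a18, 23.3% of all genes were under 1 TPM in pup 1.

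Around Peg10, the neighbour Sgce, an imprinted gene for epsilon-sarcoglycan transcribed away from it, had 0 counts in pup 3 and 4341 counts, 66.4 TPM, in pup 1. Tfpi2, a protease inhibitor gene, had 0 TPM in pup 3, against 70.3 TPM in pup 1. At the pup 1 level of Sgce and Tfpi2, 19.7% of all genes were under 1 TPM in pup 3. The paraoxonase genes, of which Pon1 and Pon3 are typical of liver, were present in both. Pon1 had 646 TPM in pup 3, against 319 TPM in pup 1, Pon3 had 95.8 and 55.4 TPM, and Pon2 had 16.9 and 25.7 TPM. Of the 10 genes listed for this domain, 3, the paraoxonase genes, were detected in both libraries. Detected in pup 3 only was 1 gene, and in pup 1 only 2 genes. Peg10, with its single count, was among the 4 detected in neither.

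Next to Grb10, Ddc, the gene of aromatic amino acid decarboxylase, had 31.6 TPM in pup 3, against 0.107 TPM in pup 1, the reverse of Grb10. In the domain of Ndn, Mkrn3 had 0 TPM in pup 3, against 35.97 TPM in pup 1, and Ube3a, a ubiquitin ligase gene, had 19.6 TPM in pup 3, against 0.107 TPM in pup 1. Sf3b5, near Plagl1, had 11.9 TPM in pup 3 and 0 counts in pup 1. At the pup 3 level of Ddc, Ube3a and Sf3b5, 45.9% of all genes were under 1 TPM in pup 1. At the pup 1 level of Mkrn3, 49.3% were under 1 TPM in pup 3. Neither Usp29 nor Zim1, neighbours of Peg3, had a count in either library.

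Among imprinted genes of other domains, Slc38a4, a transporter of neutral amino acids, was the most abundant and nearly level, with 321 TPM in pup 3, against 329 TPM in pup 1 (325 ± 5.31). Gnas, which encodes the stimulatory G protein alpha subunit, had 38.6 and 34.1 TPM in pup 3 and pup 1. Dcn, a mesenchymal matrix gene whose imprinting is known from placenta, had 140 TPM in pup 3, against 215 TPM in pup 1. Ampd3 had 71.2 and 14.1 TPM, and Commd1 had 0 and 129 TPM, in pup 3 and pup 1. At the pup 1 level of Commd1, 19.7% of all genes were under 1 TPM in pup 3.

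**Figure D4:**
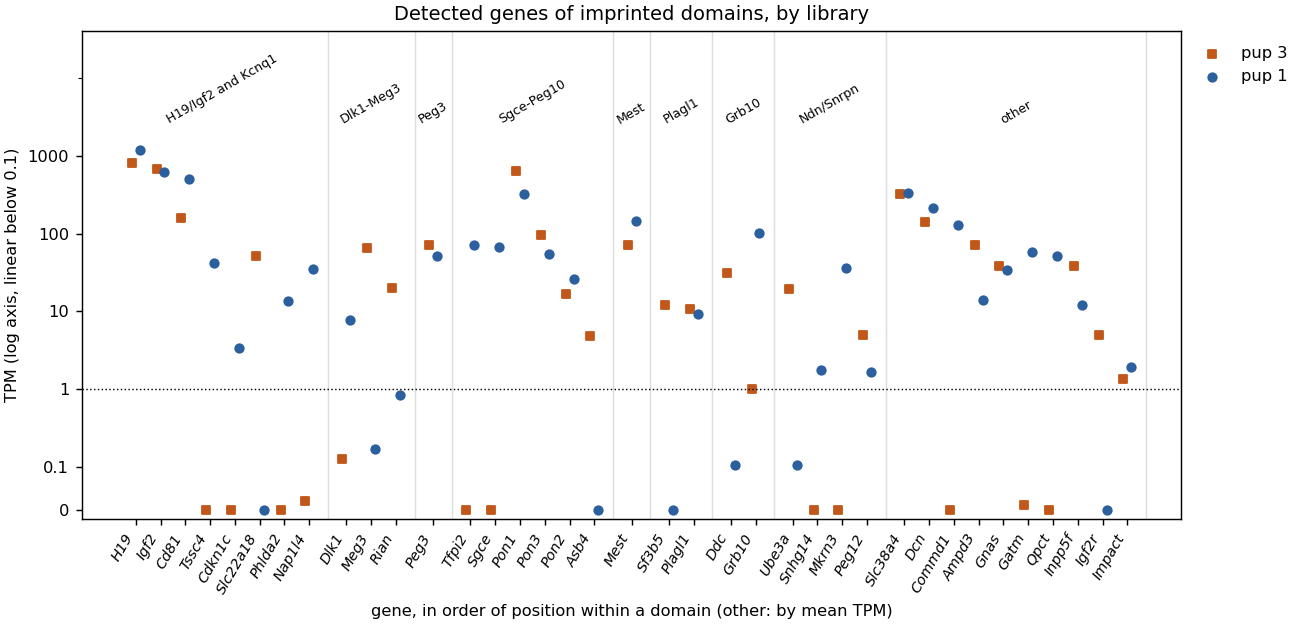
TPM of the 37 genes of imprinted domains with at least 1 TPM in a library, members included, in pup 3 (squares) and pup 1 (circles), on a log axis that is linear below 0.1; the dotted line marks 1 TPM. Genes above about 200 TPM, such as H19, Igf2, Pon1 and Slc38a4, lie well above the line in both libraries, whereas many others have a point at or near 0.

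For a sense of scale, the genes closest in level were found for each member detected in both libraries, by the Euclidean distance of log2(TPM + 1) over the 2 libraries. Nearest to H19 were Ctsl (786 TPM in pup 3, against 1229 TPM in pup 1), Rpl4 and Eif1. Nearest to Mest were C8g (72.2 and 151 TPM), Slc2a2 and Eif3l. Peg3 lay beside Mtg1 (72.4 and 49.7 TPM), Xrn2 and Mrpl2, and Plagl1 beside Odc1 (10.05 and 9.47 TPM), Gm13509 and Epg5. With 2 libraries this places the levels and shows no shared pattern.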

How the data were processed

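Both libraries were RNA-seq of newborn liver made with a mirVana extraction and a SmartSeq protocol, per the labels' protocols. Values refer to mm10 and GENCODE M4 genes and derive from a transcriptome alignment, per the deposited notes; the sources used here name no aligner, quantification program or use of strand. The authors deposited expected counts, which divide reads of several origins and can be fractional. TPM as deposited has 2 decimals and sums to 1000000 over all features. Posterior mean TPM and its bounds, as deposited, were treated as a score. The isoform percent that the authors deposited was recomputed here from transcript and gene TPM.

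Spike-ins were removed and TPM rescaled to 1000000. Ratios are log2(TPM + 1), pup 3 over pup 1, over genes that average 10 or more expected counts; the pseudocount understates differences of low genes. The labels give 1 group, so no test was run and ratios describe 2 libraries. Their arithmetic was tested on simulated counts. Names and coordinates came from GENCODE M21 (GRCm38, the assembly of mm10), microRNA and start-window sequences from RefSeq. H19, Cdkn1c and Peg10 have no window there and none was looked for elsewhere. Of the list genes, 5 symbols (Zim3, Zfp264, Apeg3, Copg2os2 and Peg13) matched no listed gene. Named beside the members were Igf2, genes of the members' domains at 10 TPM or more in a library, genes of other domains with a mean of at least 30 TPM, transcripts holding at least 10% of a member, the 3 genes nearest in level and the 3 leading markers of each cell type with markers detected; Usp29, Zim1, Reln, Pecam1, Cdh5, Kdr, Peg3-203 and Grb10-203 were added after their values were seen. Members and lists were chosen with earlier results of these data known. Alternatives covered units, thresholds, pseudocount, filters, thinning, scaling (TMM of edgeR 4.0.16 and size factors of DESeq2 1.42.0 on expected counts after rounding, or totals of the spike-ins) and each library alone, with Python 3.11.15, pandas 2.3.3, numpy 2.4.6, matplotlib 3.10.9 and R 4.3.3.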

Additional observations from a re-analysis of the deposited data

How the results depend on the processing

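The summed level of the 10 genes, 1263 TPM, was 2047 as CPM, which is not corrected for length, and moved by less than the spread between the libraries in the other units and totals tried. With each library left out in turn it ran from 1018 to 1509 TPM. The number of members detected in both libraries, 4 at 1 TPM, was 7 at 0.1 TPM, and was 4 to 6 at 5 TPM, at 10 expected counts and after thinning pup 1 to the depth of pup 3. Counted in each library by itself it was 5 in pup 3 and 7 in pup 1. Of the other imprinted genes, 12 were detected in both libraries. With these 12 included, 19 were detected in pup 3 and 22 in pup 1. The number past 2-fold was within 1.5 times of 5 under every pseudocount, filter and scaling tried. TMM and DESeq2 factors scaled pup 3 against pup 1 by -0.26 on the log2 scale and spike-in totals by 0.20; the ratios of Grb10 and Dlk1, near 0 in pup 3, moved less, and Cdkn1c stayed at -2.12. Mest was -0.81 with spike-in totals and no longer past 2-fold. Of the 7 members counted in both libraries, 5 had the same leading transcript by TPM and 6 by expected counts. Least can be said of Peg10, with 0 counts in pup 3 and 1 count in pup 1. No paired analysis was possible because the 2 libraries form 1 group.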
